A study of Homo sapiens with 9 samples.

Results

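HEK293T cells, a human embryonic kidney line that carries the large T antigen of the virus SV40, were compared between pairs of transfections of the same siRNA experiment. The 6 arrays of the knockdown experiment, out of 9 arrays in the series, form 3 pairs of BRD1 siRNA and mock that the labels call Qiagen, Dharmacon replicate 1 and Dharmacon replicate 2. The 4 arrays of the Qiagen and Dharmacon 1 pairs were set against the 2 arrays of the Dharmacon 2 pair, with the siRNA type (BRD1 siRNA or mock) as a covariate. Every array on both sides therefore comes from transfected HEK293T cells, and each side holds both BRD1 siRNA and mock arrays. The siRNA is directed against BRD1, a bromodomain protein that is part of histone acetyltransferase complexes, and the mock arrays are the controls, which the study describes as scrambled siRNA. Outside the comparison stand 3 single arrays, of untreated HEK293T cells and of lines with stable expression of the short or the long form of BRD1 (BRD1-S and BRD1-L).

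The pairs were joined with earlier results of these data known, since nothing in the labels links the Qiagen pair with Dharmacon 1. The labels give no passage, day or array batch. The culture, the transfection and the handling of the arrays therefore cannot be told apart in this comparison, and p-values measure the spread between these arrays only. The Dharmacon 2 side is a single pair, and the fit counts the arrays of a pair as independent. The p-values may therefore be too small. The 2 sides also differ in kit, as the Qiagen arrays stand on only 1 side, so the same-kit comparison of Dharmacon 1 with Dharmacon 2 is given where a result turns on it.

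As background, p53 is a transcription factor that rises in stressed or damaged cells and switches on genes that stop the cell cycle, repair DNA and start cell death. Large T antigen binds p53, yet lines that carry it can still express p53 target genes at some level. MYC is a transcription factor that drives ribosome production, translation and growth, and histone genes are read out mainly while cells copy their DNA.

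Values are log2 intensities per gene, averaged over the probe sets that carry a single gene symbol. Differences are those of the Qiagen and Dharmacon 1 arrays minus Dharmacon 2, so a negative difference means a higher level in Dharmacon 2. Where 4 values stand against 2, they follow the order Qiagen siRNA, Qiagen mock, Dharmacon 1 siRNA and Dharmacon 1 mock, then Dharmacon 2 siRNA and mock. Array means lay between 6.25 and 6.30 and the median of all values was 5.47. Where the dimmer side of a gene lies under that median, part of its signal may be background and its difference is read as approximate. BRD1 was read at 7.07, 6.94 and 6.75 with BRD1 siRNA and at 7.82, 7.79 and 7.75 with mock in the Qiagen, Dharmacon 1 and Dharmacon 2 pairs, so that the siRNA arrays lay below every mock array. Between the sides BRD1 differed by 0.16 (SE 0.08, adjusted p = 0.358), its 3 probe sets did not share a sign, and the sides overlapped. Of 8 genes chosen as markers of HEK293T cells 2 lay under the median on all 6 arrays, whereas all 8 fibroblast, all 8 epithelial, all 7 measured blood and all 6 hepatocyte markers did. None of the markers of other cell types was called between the sides, and their summed levels ranged from 29.73 to 30.63 against 29.28 to 29.57 for fibroblast markers and from 26.04 to 26.76 against 26.29 to 26.64 for blood markers. For epithelial markers they ranged from 32.40 to 32.68 against 31.13 to 31.60, and for hepatocyte markers from 21.85 to 22.17 against 22.26 to 22.30, the sides not overlapping in either case.

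The promoters of 3 p53 target genes that were lower in the Qiagen and Dharmacon 1 arrays and of 1 gene that was higher are shown as examples of called genes in each direction with a window on which to read motifs. BMP2, MYC and PHLDA3, described below, have no window in the table used. CDKN1A encodes the cell cycle inhibitor p21, GDF15 a stress-induced secreted factor, AEN a nuclease of apoptosis, and INSIG1 a brake on cholesterol synthesis. Each window holds 250 bases before and 50 bases after the start of the gene, 5′ to 3′, from RefSeq on GRCh38.p14. Capitals mark 3 motifs on either strand: the GC box GGGCGG, the core promoter motif TATAAA and the E-box CACGTG. Matches of the GC box may overlap. In this order, the windows lie at chr6:36678464-36678763, chr19:18385908-18386207, chr15:88621090-88621389 and chr7:155297628-155297927, all on the plus strand.
CDKN1A: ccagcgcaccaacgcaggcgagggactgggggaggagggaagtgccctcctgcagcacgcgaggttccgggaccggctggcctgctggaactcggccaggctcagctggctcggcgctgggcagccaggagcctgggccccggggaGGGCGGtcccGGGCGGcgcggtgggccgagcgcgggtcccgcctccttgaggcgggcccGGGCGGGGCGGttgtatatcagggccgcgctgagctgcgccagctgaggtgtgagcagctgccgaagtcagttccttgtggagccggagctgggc
GDF15: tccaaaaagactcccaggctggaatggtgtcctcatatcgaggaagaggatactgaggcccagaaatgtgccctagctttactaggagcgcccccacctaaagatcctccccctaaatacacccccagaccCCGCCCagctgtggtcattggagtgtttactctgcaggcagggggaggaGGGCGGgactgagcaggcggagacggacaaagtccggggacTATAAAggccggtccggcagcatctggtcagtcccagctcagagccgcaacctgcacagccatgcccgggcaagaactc
AEN: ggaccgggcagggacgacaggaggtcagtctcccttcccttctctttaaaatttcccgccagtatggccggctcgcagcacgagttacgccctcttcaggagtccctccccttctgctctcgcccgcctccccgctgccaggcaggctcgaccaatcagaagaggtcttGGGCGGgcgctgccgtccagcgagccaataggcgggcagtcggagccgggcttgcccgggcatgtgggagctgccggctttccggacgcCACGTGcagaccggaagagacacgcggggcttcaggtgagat
INSIG1: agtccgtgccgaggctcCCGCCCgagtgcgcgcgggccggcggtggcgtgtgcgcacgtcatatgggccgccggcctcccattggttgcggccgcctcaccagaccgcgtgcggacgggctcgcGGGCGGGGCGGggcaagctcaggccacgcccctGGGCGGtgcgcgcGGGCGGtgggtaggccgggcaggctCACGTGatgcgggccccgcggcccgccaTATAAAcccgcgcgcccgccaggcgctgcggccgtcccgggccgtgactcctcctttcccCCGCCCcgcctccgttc
The GDF15 window held 2 GC boxes and 1 TATAAA, the CDKN1A window 4 GC boxes and no TATAAA, and the AEN window 1 GC box and 1 E-box. The INSIG1 window held 6 GC boxes, 1 TATAAA and 1 E-box. GGGCGG was found in 9 of the 10 called p53 targets with a window (90.0%), beside 67.2% of 265 windows of all genes called lower, 69.5% of 239 windows of genes called higher and 59.8% of 14492 measured genes with a window. CACGTG, the letters that MYC and related factors bind, was found in 15.1% of 239 windows of genes called higher, in 5.66% of 265 windows of genes called lower, and in 8.81% of all measured genes. CCAAT was found in 32.6% and 46.0% of the same windows and in 36.4% of all measured genes. These are matches of letters, given as a description with no test.

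Of 18239 genes, 305 were higher in the Qiagen and Dharmacon 1 arrays (1.67%) and 309 were lower (1.69%) in a limma fit at an adjusted p under 0.05, 3.37% in all. Of these, 85 and 167 differed by more than 1.5-fold. The genes called lower had a median difference of -0.60 and those called higher 0.49. All 614 called genes had the same sign in the BRD1 siRNA arrays and in the mock arrays, and 48 of the higher and 105 of the lower genes passed 1.5-fold within each treatment. The arrays of the 2 sides did not overlap for 304 of the 305 and for all 309, beside 17.1% and 11.7% of all genes in these directions. The called genes were chosen on these same arrays, so the shared signs and the lack of overlap largely follow from the choice. By the study's own 1.5-fold threshold, with no test, 118 genes were higher (0.647%) and 250 lower (1.37%) with no overlap of the sides. Calls ended at an adjusted p of 0.0498, and the nearest gene outside had 0.0504.

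Between the Qiagen and Dharmacon 1 pairs no gene was called (0%), with 567 genes at an unadjusted limma p under 0.05. This contrast has 2 arrays on each side, the pairs were joined with these values known, and the count does not show that they are alike. The main comparison, of 4 arrays against 2, had 3578 genes at an unadjusted p under 0.05. With Dharmacon 1 alone against Dharmacon 2, the same kit on both sides, and with Qiagen alone, no gene passed the threshold either, at 1942 and 2128 genes with an unadjusted p under 0.05 and 1 residual degree of freedom. The number called rested on the 4 arrays together: without the Qiagen mock array 9 genes were higher and 37 lower, without the Dharmacon 1 mock array 16 and 51, without the Dharmacon 1 siRNA array 22 and 67, and without the Qiagen siRNA array 66 and 111. Without the Dharmacon 2 siRNA array 279 were higher and 688 lower, and with the pair as a factor of 3 levels 56 and 100. As a description of genes chosen on these same arrays, 99 of the 305 higher and 151 of the 309 lower genes passed 1.5-fold in Dharmacon 1 against 2, and 73 and 177 in Qiagen against Dharmacon 2.

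p53 target genes were lower in the Qiagen and Dharmacon 1 arrays, that is, higher in Dharmacon 2. Of 25 listed targets 23 were measured, 13 were called lower and none higher, beside 1.69% and 1.67% of all genes. The median difference of the 23 was -0.52, beside 0.03 over all genes, and was -0.57 in the siRNA arrays and -0.56 in the mock arrays. It was -0.44 for Dharmacon 1 and -0.61 for Qiagen, each against the same Dharmacon 2 arrays. The members called ranged from cell cycle inhibitors to death receptors and to feedback inhibitors of p53 itself.

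CDKN1A, which arrests the cell cycle, had the largest difference. It was read at 7.04 (siRNA) and 6.48 (mock) on the Qiagen arrays, at 6.80 and 6.41 on those of Dharmacon 1 and at 8.95 and 9.18 on those of Dharmacon 2. All 4 arrays lay well below both Dharmacon 2 arrays, a level 5.23-fold higher in Dharmacon 2 (difference -2.39, SE 0.16, adjusted p = 0.0033). PHLDA3, a p53 target that restrains AKT signalling, was read at 6.39, 6.29, 6.41 and 6.20 in the 4 arrays and at 7.82 and 7.84 in Dharmacon 2. Its spread within each side was small and all 3 of its probe sets were lower (difference -1.51, SE 0.08, adjusted p = 0.0013). GDF15 was read at 4.02, 4.18, 4.38 and 4.50 against 6.22 and 6.08, with a difference of -1.88 (SE 0.14, adjusted p = 0.0042). Its 4 lower arrays lie under the median of all values, so the size is approximate.

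Among genes of cell death, FAS, the receptor of the Fas ligand, was read at 6.08, 5.89, 6.37 and 6.18 against 7.57 and 7.47 in Dharmacon 2 (difference -1.39, SE 0.12, adjusted p = 0.0044). TNFRSF10B, which encodes the TRAIL receptor DR5, was lower in all 3 of its probe sets, with a difference of -0.71 (adjusted p = 0.0147). AEN was lower by 0.64 on the log2 scale (adjusted p = 0.0233). EDA2R, a further death receptor gene, had a difference of -1.05 (adjusted p = 0.0034), but its 2 probe sets had opposite signs and it was dim on both sides. TP53INP1, which promotes p53-dependent death and autophagy, differed by -1.08 (adjusted p = 0.0156). Its 2 probe sets differed by -2.13 and -0.03, and its lower side was dim. In contrast, BBC3, which encodes the death activator PUMA, was read at 8.20, 7.75, 7.99 and 7.89 against 7.51 and 7.46, a positive difference of 0.47 that did not pass the test (adjusted p = 0.0547). BAX, the pore-forming death protein, differed by -0.14 (adjusted p = 0.383) and the sides overlapped.

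Among genes of DNA repair and of feedback, DDB2, which recognises ultraviolet damage, differed by -1.03 (SE 0.12, adjusted p = 0.0144). SESN1, a sestrin induced by p53, differed by -0.52 (adjusted p = 0.0348). MDM2, the ubiquitin ligase that degrades p53, was read at 4.87, 5.12, 5.03 and 5.04 against 5.29 and 5.64. The difference of -0.45 (SE 0.09, adjusted p = 0.0473) lay just inside the threshold, all 11 probe sets were lower, and the level was near or under the median throughout. PPM1D, the phosphatase that switches p53 signalling off, differed by -0.53 with all 4 probe sets lower (adjusted p = 0.0325). SPATA18, of mitochondrial quality control, was the remaining member called, at -0.49 (adjusted p = 0.0443). It was dim on both sides, and its probe sets ranged from -0.72 to -0.09. The 10 members not called ranged from -0.55 for POLH (adjusted p = 0.0803) to 0.47 for BBC3. TP53I3, another p53-induced gene that was not on the list, was read at 6.43, 6.32, 6.03 and 6.46 against 7.46 and 7.56 (difference -1.20, adjusted p = 0.0083).

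**Figure D1:**
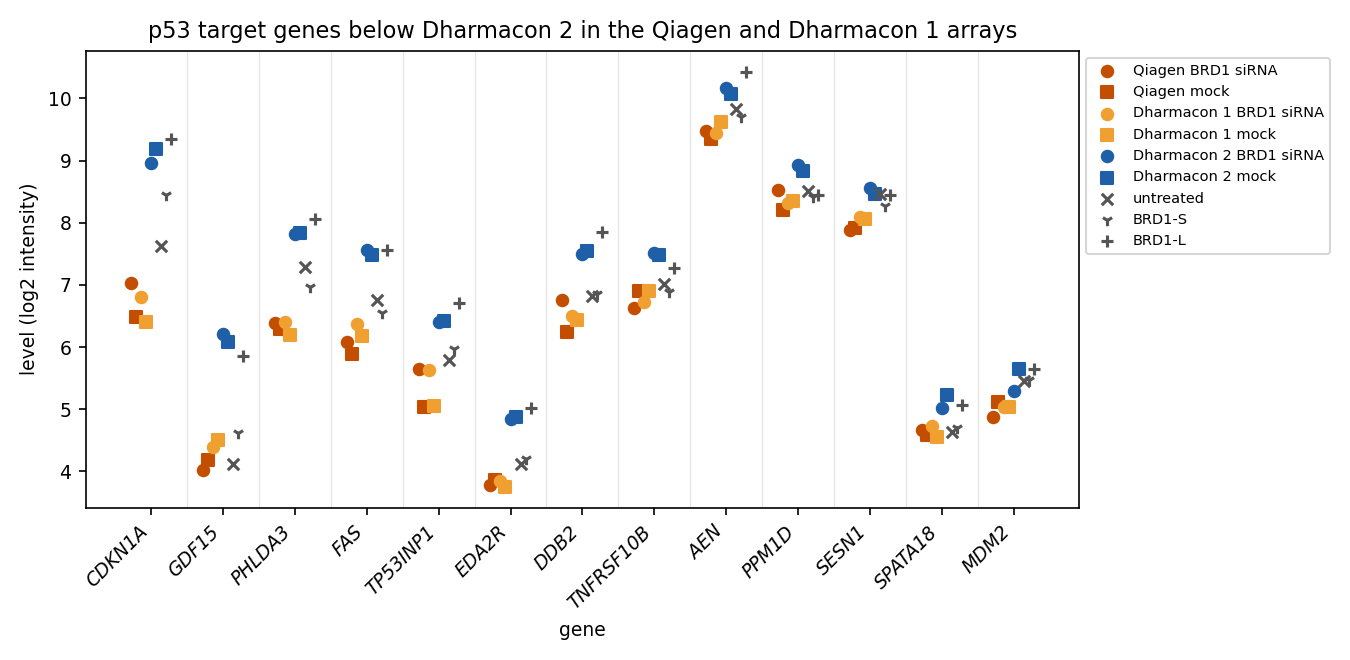
Level (log2 intensity) of the 13 called p53 target genes on each of the 9 arrays. Circles are BRD1 siRNA arrays, squares mock arrays, and grey marks the single arrays outside the comparison. The 2 Dharmacon 2 arrays (blue) lie above all 4 Qiagen and Dharmacon 1 arrays for every gene drawn. The genes were called on these same arrays, so this separation largely follows from the choice.

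The number of p53 targets called depended on single arrays. It was 5 of 23 without the Qiagen mock array or without the Dharmacon 1 siRNA array, 6 without the Dharmacon 1 mock array, 8 without the Qiagen siRNA array, 9 and 11 without a Dharmacon 2 array, 7 with the pair as a factor, and 0 in any single pair or single treatment. CDKN1A, GDF15, PHLDA3, FAS and EDA2R were called whichever array was left out. Of the 13 called targets, in untreated cells 12 lay below both Dharmacon 2 arrays and 10 above all 4 others, and the BRD1-S array gave the same counts. On the BRD1-L array 4 lay below both Dharmacon 2 arrays and 12 above all 4 others. On that array 12 lay nearer to Dharmacon 2, against 4 in untreated cells and 4 on the BRD1-S array. CDKN1A was read at 7.63 in untreated cells, at 8.45 with BRD1-S and at 9.34 with BRD1-L.

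MYC was higher in the Qiagen and Dharmacon 1 arrays. It was read at 12.79 (siRNA) and 12.64 (mock) in the Qiagen pair, 12.78 and 12.66 in the Dharmacon 1 pair, against 11.50 and 11.44 in Dharmacon 2. The arrays within each side differed by far less than the sides, at a level 2.38-fold higher (difference 1.25, SE 0.07, adjusted p = 0.0014, 1 probe set). The untreated array read 11.42, close to Dharmacon 2, and the BRD1-S and BRD1-L arrays read 10.77 and 10.31. MYC was called whichever array was left out.

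Genes of ribosome production and translation lay slightly above Dharmacon 2 as a group, but almost none passed the test singly. Of 32 measured ribosome biogenesis genes none was called, 26 had a positive difference and the median was 0.21, with 0.29 in the mock arrays and 0.07 in the siRNA arrays. Of 29 genes of translation initiation and tRNA charging 1 was called higher and 26 had a positive difference, at a median of 0.16. Over all genes 10539 of 18239 had a positive difference and 1.67% were called higher. The gene called was EIF4EBP1, a repressor of cap-dependent translation, at 11.57, 11.47, 11.61 and 11.46 against 11.14 and 11.14 (difference 0.39, adjusted p = 0.039). For the 40 measured cytosolic ribosomal protein genes the median was 0.05 and none was called. The untreated array lay above Dharmacon 2 for the ribosome biogenesis genes too, by a median of 0.18.

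BMP2, a secreted bone morphogenetic protein, had the largest positive difference of all named genes. It was read at 8.13 (siRNA) and 8.57 (mock) in the Qiagen pair, 8.07 and 8.68 in the Dharmacon 1 pair, against 6.13 and 6.45 in Dharmacon 2. All 4 arrays lay far above both others, at a level 4.21-fold higher (difference 2.07, SE 0.08, adjusted p = 0.000889), and both probe sets shared the sign. On the single arrays outside the comparison BMP2 was read at 5.97 in untreated cells, 6.66 with BRD1-L and 8.96 with BRD1-S. Of 30 measured genes of the BMP and TGF-beta pathway 3 were called higher and 1 lower, beside 1.67% and 1.69% of all genes. The list had a median of -0.10. ID4, a BMP-responsive inhibitor of transcription factors, was higher by 0.80 in all 4 probe sets (adjusted p = 0.0132) and NOG, which encodes the BMP antagonist noggin, by 0.44 (adjusted p = 0.0418). MSX2, a homeobox gene downstream of BMP signals, was read at 8.33, 8.63, 8.43 and 8.63 against 9.08 and 9.22, in the other direction (difference -0.64, adjusted p = 0.0132). BMP2 was the only one of these 4 genes called without each array in turn.

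The other genes that lay highest above Dharmacon 2 had varied roles. MATK, a kinase that inhibits Src family kinases, was read at 9.25, 8.99, 9.24 and 9.17 against 7.72 and 7.86 (difference 1.37, SE 0.10, adjusted p = 0.0034). The BRD1-S and BRD1-L arrays read MATK at 7.32 and 5.85, both below all 6 arrays. FBXL16, an F-box protein gene, was higher by 1.19, which was 1.62 in the siRNA arrays and 0.76 in the mock arrays. HBQ1, a globin gene, was higher by 1.08, and DCAF1, a substrate receptor of a ubiquitin ligase, was read at 8.82, 8.92, 8.65 and 8.89 against 7.76 and 7.74 (difference 1.07, adjusted p = 0.0043). The 2 probe sets of DCAF1 differed by 0.22 and 1.92. CYP26A1, which breaks down retinoic acid, was higher by 1.01 (adjusted p = 0.0202), and CSPG5, a brain proteoglycan, by 0.96 (adjusted p = 0.0035). SLC37A4, the glucose-6-phosphate transporter, was higher in all 6 of its probe sets, by 0.91 (adjusted p = 0.0043). CIRBP, an RNA-binding protein induced by cold, was read at 8.87, 9.41, 9.31 and 9.64 against 8.46 and 8.40, a wider spread within the side (difference 0.88, adjusted p = 0.0424). The other genes of the 15 highest were ADGRB3 (1.04), MNS1 (1.03), HAGHL (1.03), the non-coding EPB41L4A-AS1 (0.97) and SNORA12 (0.89). ADGRB3 was dim in Dharmacon 2.

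**Figure D2:**
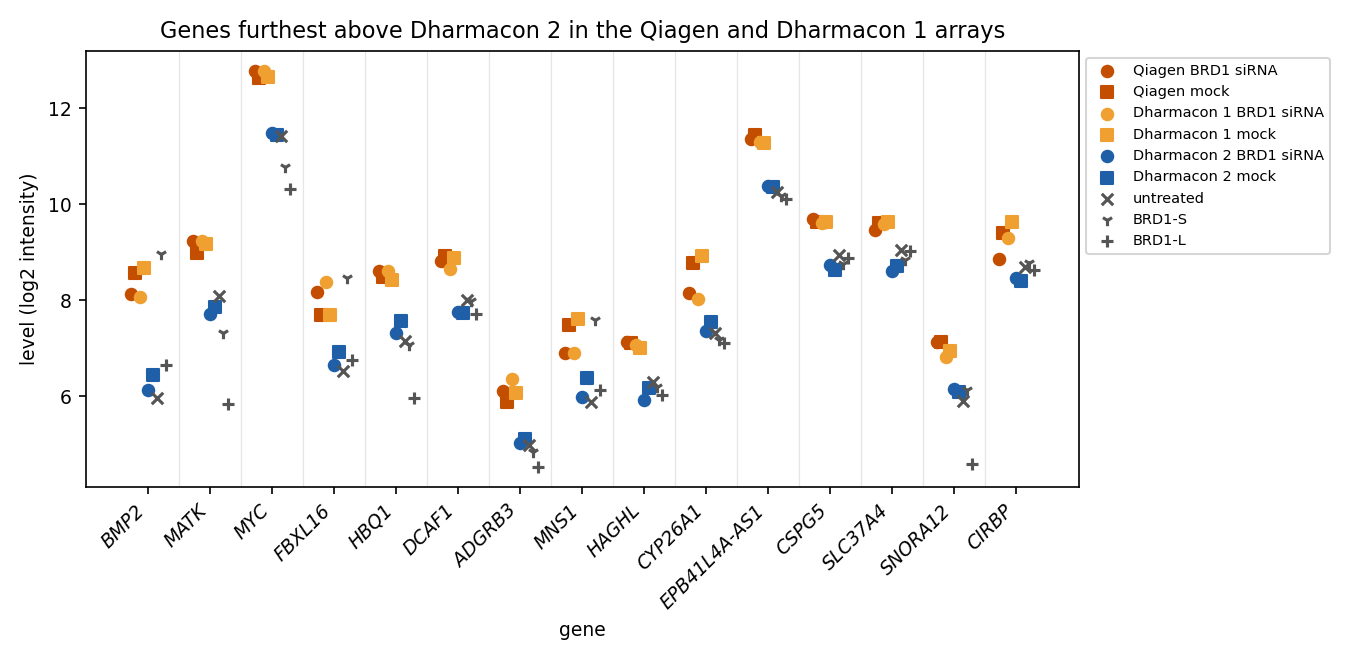
Level (log2 intensity) on each of the 9 arrays of the 15 genes with the largest positive difference among those called, with symbols as in the plot of p53 targets. The 4 Qiagen and Dharmacon 1 arrays (orange) lie above the 2 Dharmacon 2 arrays (blue) for every gene, from BMP2 at 2.07 to CIRBP at 0.88. Genes were drawn only if the sides did not overlap, so this separation follows from the choice.

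Genes of innate immunity and antigen presentation contained 4 called lower and none higher among 35 measured, beside 1.69% and 1.67% of all genes. The list had a median of -0.05. BST2, which tethers budding viruses to the cell, was read at 3.49, 3.77, 3.92 and 3.88 against 5.33 and 5.72. All 4 of its probe sets were lower (difference -1.76, SE 0.13, adjusted p = 0.0042), though it was dim on every array but 1. IFI6 differed by -0.80, IFITM1 by -0.65 and IFITM2 by -0.60, all interferon-induced genes (adjusted p = 0.0362, 0.0144 and 0.0228). IFITM1 and IFITM2 are closely related in sequence and may share probes. Further genes of this kind were chosen after their values were seen: UBE2L6, an enzyme of ISG15 conjugation, was read at 6.33, 6.13, 6.80 and 6.23 against 7.88 and 7.72 (difference -1.43, adjusted p = 0.0069). HLA-DPA1, a class II antigen-presenting chain, was read at 6.71, 6.85, 6.87 and 7.01 against 8.26 and 8.30, with all 4 probe sets lower (difference -1.42, adjusted p = 0.0022). HLA-DRB1 and HLA-DMA, of the same pathway, differed by -1.14 and -0.72 (adjusted p = 0.0044 and 0.031) at lower levels. APOBEC3B, a cytidine deaminase that edits DNA, was read at 5.93, 5.25, 6.13 and 5.90 against 7.91 and 8.18, a level 4.73-fold higher in Dharmacon 2 (difference -2.24, SE 0.22, adjusted p = 0.0081). TRIM56, a ubiquitin ligase of antiviral signalling, was read at 5.77, 5.72, 5.82 and 5.68 against 7.12 and 7.16 (difference -1.39, SE 0.07, adjusted p = 0.0013). APOBEC3B, TRIM56 and HLA-DPA1 were called without each array in turn, as was BST2, whereas the count for the list fell to 1 without the Qiagen mock array and without either Dharmacon 1 array.

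Replication-dependent histone genes included 7 called lower and none higher of 30 measured, beside 1.69% and 1.67% of all genes, with a median of -0.12. Without the Qiagen siRNA array 5 were called lower, without the Qiagen mock array 3, without either Dharmacon 1 array 4, without the Dharmacon 2 mock array 11 and with the pair as a factor 4. Of the 30 genes 22 lay under the median of all values on all 6 arrays, and near-identical copies may share probes, so single members are uncertain. H2BC5, the brightest of the called members past 1.5-fold, was read at 6.57, 6.62, 6.62 and 6.74 against 8.31 and 8.28 (difference -1.65, SE 0.07, adjusted p = 0.0013), with all 3 probe sets lower. H2AC6 differed by -1.51 (adjusted p = 0.0044) and H2BC11 by -0.80 (adjusted p = 0.0103). The other called members, H2AC11, H3C4, H2BC4 and H2BC12, differed by -0.80, -0.68, -0.67 and -0.42, and the 2 probe sets of H2BC12 had opposite signs. The genes of the start of S phase did not move with them, as none of 27 was called and their median was 0.07. Of 31 mitosis genes 2 were called lower, beside 1.69% of all genes, at a median of -0.11. HMMR, a spindle protein, was read at 8.42, 8.97, 8.63 and 8.94 against 9.63 and 9.74 (difference -0.94, adjusted p = 0.0123), and CCNB2, a mitotic cyclin, at 10.25, 10.23, 10.26 and 10.26 against 10.65 and 10.72 (difference -0.44, adjusted p = 0.0264). In untreated, BRD1-S and BRD1-L cells HMMR was read at 9.93, 9.83 and 9.99, above all 6 arrays. Without the Qiagen mock array or either Dharmacon 1 array neither mitosis gene was called.

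Of 32 measured neuronal genes 5 were called lower and none higher, beside 1.69% and 1.67% of all genes, with a median of -0.02. The count was 2 without the Qiagen mock array or either Dharmacon 1 array, and 3 without the Qiagen siRNA array or with the pair as a factor. BASP1, a membrane-bound protein of growth cones, was read at 7.44 (siRNA) and 6.75 (mock) in the Qiagen pair, 7.60 and 6.96 in the Dharmacon 1 pair, against 8.91 and 8.95 in Dharmacon 2, and all 3 probe sets were lower (difference -1.74, SE 0.16, adjusted p = 0.0069). TUBB3, the neuronal tubulin, was read at 7.57, 7.46, 7.59 and 7.47 against 8.50 and 8.76 (difference -1.10, adjusted p = 0.0051). RTN1 and INA, a reticulon and a neurofilament-like protein, differed by -0.75 and -0.56 (adjusted p = 0.0148 and 0.0365). KIF5C, a kinesin of axonal transport, differed by -0.34 (adjusted p = 0.0487). INA is also a marker of HEK293T cells, and it was the only one of the 8 called. The neurofilament genes NEFM and NEFL, markers of the line as well, had positive differences of 0.53 and 0.33 that did not pass the test (adjusted p = 0.123 and 0.156), with no overlap of the sides. SERPINH1, the collagen chaperone HSP47, was read at 8.53, 8.42, 8.55 and 8.66 against 9.75 and 9.73 (difference -1.20, SE 0.08, adjusted p = 0.0034), and COL5A1, a collagen chain, differed by -0.60 (adjusted p = 0.0414). These were the 2 genes called of 43 matrix genes, whose median was -0.01, beside 1.69% of all genes called lower. With any single Qiagen or Dharmacon 1 array left out 1 of the 43 was called lower, and without the Dharmacon 2 siRNA array 6 were. LOX, which cross-links collagen, and EFEMP1, a fibulin, had positive differences of 0.55 and 0.41 that did not pass the test (adjusted p = 0.168 and 0.219). ACTA2, a smooth muscle actin, was lower by 1.34 but dim, and 1 of its 3 probe sets was higher.

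Other genes that lay furthest below Dharmacon 2 included KRCC1 (-1.73), APOE, a lipid carrier (-1.67), CD24, a surface glycoprotein (-1.61), PHLDA2, an imprinted growth regulator (-1.60), and SHC2, a signalling adaptor (-1.57). All of these but CD24 were dim on the lower side. KRTAP19-1, a keratin-associated gene, was also lower with BRD1 siRNA than with mock, at 4.75 and 4.98 in the siRNA arrays and 6.15 and 6.10 in the mock arrays of the Qiagen and Dharmacon 1 pairs, against 6.94 and 7.41. CD24 had the reverse order, at 6.63 and 6.63 with siRNA and 5.79 and 5.57 with mock, against 7.60 and 7.94. MAGEB2, a cancer-testis gene, was read at 4.63, 4.52, 4.51 and 4.77 against 6.04 and 6.33 (difference -1.58, adjusted p = 0.0027), and NUPR1, a stress-induced chromatin protein, at 4.91, 5.07, 5.11 and 5.00 against 6.52 and 6.41 (difference -1.45, adjusted p = 0.0021), both dim on the lower side. The galectin genes LGALS1 and LGALS3 and the galectin ligand LGALS3BP, chosen after their values were seen, differed by -1.35, -0.97 and -1.30 (adjusted p = 0.0204, 0.0144 and 0.0125). For LGALS1 the 4 arrays read 5.54, 5.64, 5.99 and 6.17 against 6.96 and 7.41.

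Of the stress and metabolism lists, 3 of 19 heat shock genes were called lower and none higher, at a median of -0.22. The shares over all genes were 1.69% lower and 1.67% higher. DNAJB1, a co-chaperone of HSP70, was read at 9.20, 9.49, 9.29 and 9.57 against 9.87 and 9.90 (difference -0.50, adjusted p = 0.0372). HSPB1, the small heat shock protein HSP27, and BAG3, its partner in protein quality control, differed by -0.47 and -0.40 (adjusted p = 0.0378 and 0.0395). None of the 3 was called when any of the 4 Qiagen and Dharmacon 1 arrays was left out. Of 36 glycolysis and hypoxia genes 4 were called higher and 1 lower, beside 1.67% and 1.69% of all genes. NDRG1, PDK1, VEGFA and HILPDA, all induced by low oxygen, were higher by 0.55, 0.53, 0.46 and 0.45, whereas ADM, also induced by low oxygen, was lower by 0.42 (adjusted p = 0.0422). VEGFA was higher in all 10 probe sets. NDRG1 lay near or under the median of all values on both sides, and its 6 probe sets ranged from 0.09 to 0.92. Without the Qiagen siRNA array or either Dharmacon 2 array 1 gene of the list was called higher, and without the Qiagen mock array, without either Dharmacon 1 array or with the pair as a factor none was. BNIP3L, a mitophagy receptor that low oxygen induces too, had the largest difference of the list, -0.68, with all 6 probe sets lower, and did not pass the test (adjusted p = 0.104). NQO1, a target of the oxidative stress factor NRF2, was lower by 1.00 (adjusted p = 0.0125) while SRXN1, another target, was higher by 0.45 (adjusted p = 0.0418). INSIG1 was read at 10.41, 10.25, 10.59 and 10.28 against 9.86 and 9.57 (difference 0.66, adjusted p = 0.0144), while HSD17B7, an enzyme of cholesterol synthesis, was lower by 0.58 (adjusted p = 0.0155). Among lysosome and autophagy genes WIPI1, which acts in autophagosome formation, and NEU1, a sialidase, differed by -1.41 and -1.03 (adjusted p = 0.0191 and 0.0069) and GUSB, a lysosomal glucuronidase that the study used as a housekeeping gene, by 0.49 (adjusted p = 0.042). WIPI1 was dim on the lower side.

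In the BRD1 complex and MYST acetyltransferase list 1 of 14 genes was called higher and 1 lower. Among all genes 1.67% were called higher and 1.69% lower, so a single call in a list of such a size says little about the list. KAT8, a MYST acetyltransferase, was read at 9.35, 9.25, 9.45 and 9.20 against 8.74 and 8.69 (difference 0.60, adjusted p = 0.0155), and ING4, a chromatin-binding subunit of such complexes, at 7.51, 7.75, 7.44 and 7.83 against 8.11 and 8.13 (difference -0.48, adjusted p = 0.0424). NRARP, a NOTCH target, was higher by 0.53 and TNFAIP3, an NF-kB inhibitor, by 0.61 (adjusted p = 0.0383 and 0.0395). TNFAIP3 was dim in Dharmacon 2. Of 31 genes of the integrated stress and unfolded protein response SLC3A2, an amino acid transporter subunit, was higher by 0.44 and DNAJC3, a chaperone of the endoplasmic reticulum, lower by 0.50. Of 36 cell adhesion genes the protocadherins PCDH10 and PCDH17 were lower by 0.79 and 0.47, and of 37 oxidative phosphorylation genes NDUFB3, a complex I subunit, was lower by 0.42. HOXD1, at 0.43, was the called member of 26 HOX genes, and TEAD4, the partner of YAP, at 0.46, that of 23 YAP and TEAD genes. HOXD1 was dim on both sides. No gene was called among 31 WNT pathway, 32 splicing, 28 proteasome, 21 epithelial and 13 RNA interference genes, with medians from -0.07 to 0.02.

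**Figure D3:**
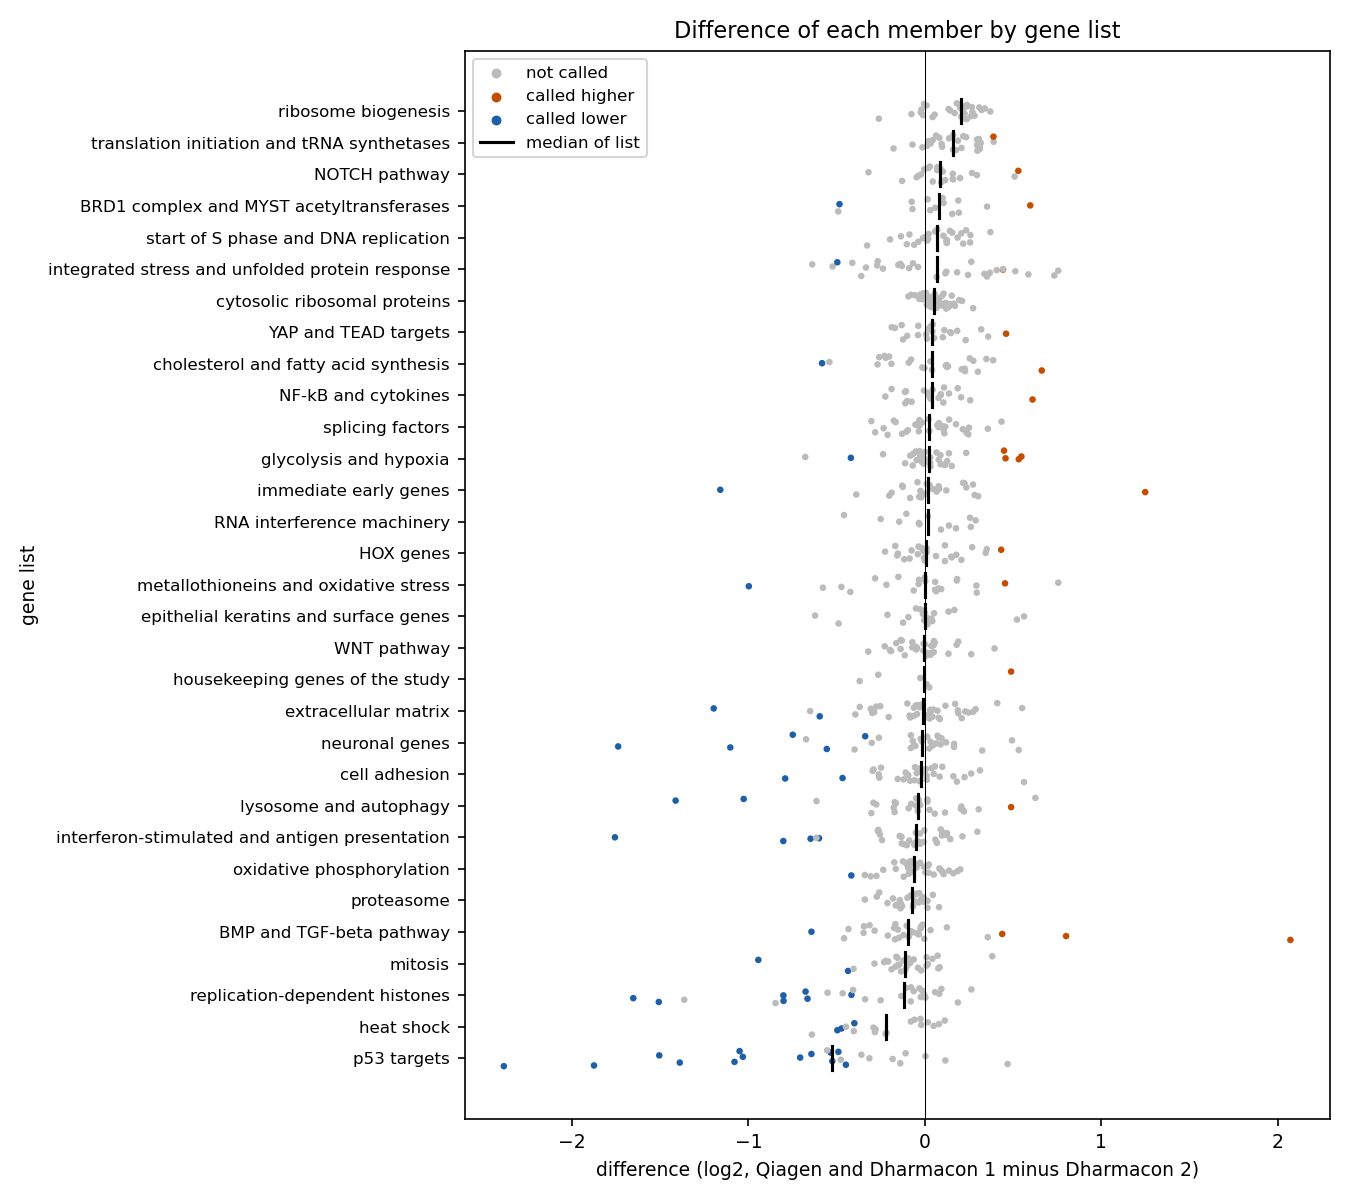
Difference (log2, Qiagen and Dharmacon 1 minus Dharmacon 2) of each measured member of the gene lists, 1 row for each list, with called genes in colour and the median as a black bar. The p53 targets have the lowest median, -0.52, while ribosome biogenesis genes have the highest, 0.21, with no member called.

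Whether the difference between the sides depended on BRD1 siRNA was tested as an interaction. It was called for 65 genes (0.356%), of which 1, DUSP5, was also called between the sides. In 53 of the 65 the effect of BRD1 siRNA was more positive in the Qiagen and Dharmacon 1 pairs and in 12 more negative, a split that became 132 against 149 when each array was centred on its median. In 46 of the 53 the 2 mock arrays of the Qiagen and Dharmacon 1 pairs had the lowest values of the 6. These 53 genes were chosen on the same arrays by a positive interaction, which favours low values on those mock arrays. The share over all genes was not counted. MDK, the growth factor midkine, was read at 7.62 and 7.67 on those 2 mock arrays and between 10.46 and 10.64 on the other 4 of the 6. SERP1, a protein of the endoplasmic reticulum, was read at 8.56 and 8.50 on them and between 10.31 and 10.42 on the others, and CAPN2, a calpain protease, at 7.63 and 7.57 against 9.24 to 9.40. In the other direction, the histone gene H2AC14 was read at 3.26 (siRNA) and 3.87 (mock) in the Qiagen pair and 3.32 and 4.46 in the Dharmacon 1 pair, but at 6.82 on the Dharmacon 2 siRNA array and 3.37 on its mock array. It stood high on 1 of the 6 arrays. On the same scale the untreated array read MDK at 10.40, SERP1 at 10.50 and CAPN2 at 9.47. The Dharmacon 2 side holds 1 array for each treatment, so a gene not called is not shown to be independent of BRD1 siRNA. Among named genes without a called interaction, its size was 1.29 for CD24, 0.75 for APOE, 0.70 for CDKN1A and -0.80 for KRTAP19-1, but 0.07 for MYC.

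**Figure D4:**
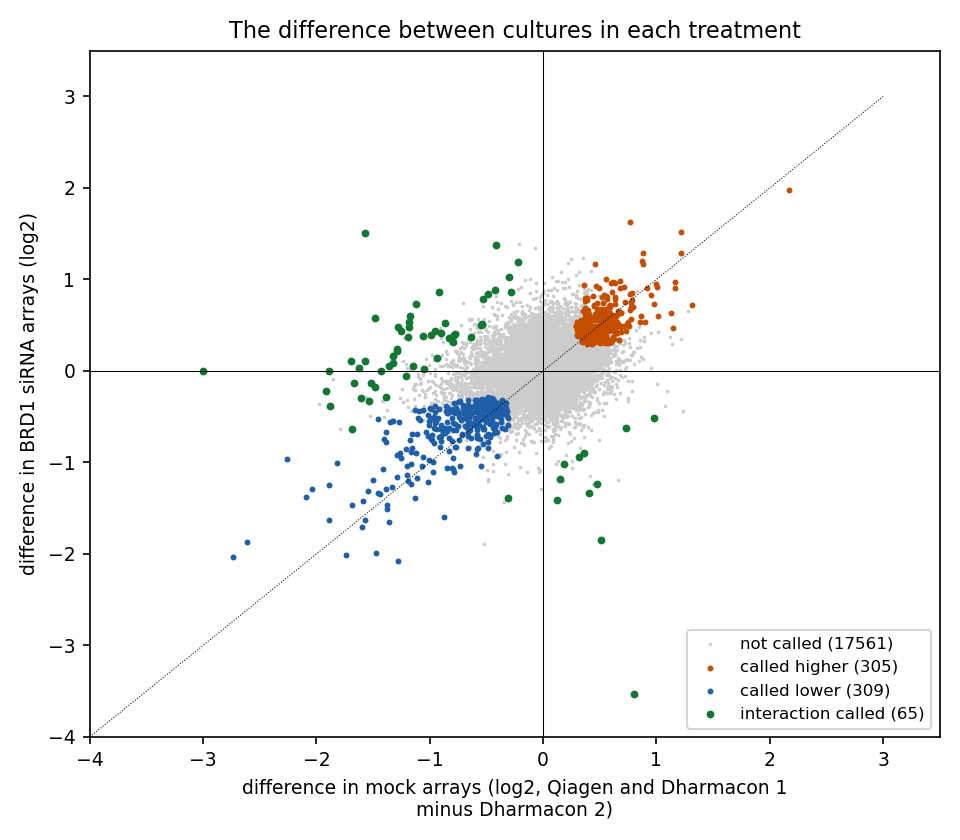
Difference between the sides (log2) in the BRD1 siRNA arrays against that in the mock arrays for 18239 genes. The 305 genes called higher and the 309 called lower lie in the upper right and lower left, where both treatments share a sign, and the 65 genes with an interaction lie off the dotted line of equal differences. The genes were called on these same arrays, so a shared sign largely follows from the choice.

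The 3 arrays outside the comparison lay nearer to Dharmacon 2 for most called genes. Of the 305 genes called higher, 213 in untreated cells (69.8%), 239 with BRD1-S (78.4%) and 254 with BRD1-L (83.3%) were nearer to the Dharmacon 2 mean than to that of the other 4 arrays. Of the 309 genes called lower the numbers were 176 (57.0%), 231 (74.8%) and 270 (87.4%). Over all genes the shares were 52.2%, 56.3% and 57.8%. These are single arrays and the counts carry no test. The genes went different ways, as MYC was read below both Dharmacon 2 arrays on all 3 while BMP2 was above both Dharmacon 2 arrays on the BRD1-S and BRD1-L arrays, and GDF15 in untreated cells, at 4.12, was among the values of the Qiagen and Dharmacon 1 arrays.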

How the data were processed

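RNA of HEK293T cells was measured on Affymetrix U219 arrays, 1 for each sample. The deposited values are log2 intensities for 49386 probe sets, which the authors normalized to the mean intensity of the array; how probes were summarised and background removed is not given in the sources used here. The number of arrays limits the precision, and no detection calls were used.

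Probe sets were named through GEO's platform annotation: 45259 had a single gene symbol and were averaged to 18239 genes (11823 from several probe sets), while 1327 with several symbols and 2800 with none were left out of gene levels. The 6 siRNA arrays were fitted in limma 3.58.1 (R 4.3.3) with the side and the siRNA type as terms, and p-values were adjusted over all genes by Benjamini-Hochberg at a threshold of 0.05. The interaction of side and siRNA type and the contrast of Qiagen with Dharmacon 1 were fitted likewise. The fit was tested on simulated data of 4 arrays against 2 for 18239 genes: it recovered 87 of 100 planted differences of 1 log2 unit and 100 of 100 of 2 log2 units, and it made 7 calls among unchanged genes. The simulated noise was independent between arrays, with no effect of pair or culture. Those 7 calls therefore give no rate of false calls for the real arrays, which come in pairs.

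The arrays compared and the gene lists were chosen with earlier results of these data known. Genes were named if they were BRD1, among the 15 largest called differences each way without overlap of the sides and with the brighter side above the median of all values, the 5 smallest p each way, the 5 largest differences of each list or the 4 smallest interaction p, though not all of these are reported. Further members of lists, among them those of the p53, histone and heat shock lists beyond these 5, and TP53I3, UBE2L6, HLA-DPA1, HLA-DRB1, HLA-DMA, LGALS1, LGALS3 and LGALS3BP were chosen after their values were seen. Promoters were matched by symbol to RefSeq (GRCh38.p14), with 1 window for each gene, and 14492 measured genes matched. Alternatives were other scalings, filters, probe set summaries, covariates, variance models and subsets of arrays.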

Additional observations from a re-analysis of the deposited data

Results flagged for a closer look

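For 7 of the genes eligible to be named, the effect of BRD1 siRNA differed between the 2 sides by the interaction test of limma. The effect, BRD1 siRNA minus mock, was more negative in the Qiagen and Dharmacon 1 pairs for the histone genes H2AC14, by -4.32 (adjusted p = 0.0332), and H1-2, by -1.08 (adjusted p = 0.0481). For H2AC14 the effect was -0.87 in those pairs and 3.45 in Dharmacon 2, where its siRNA array alone read above the median of all values. For H1-2 it was -0.90 and 0.18. The effect was greater in the Qiagen and Dharmacon 1 pairs than in Dharmacon 2 by 2.996 for MDK (adjusted p = 0.0146), where it was 2.89 in the former and -0.11 in the latter. It was greater by 2.07 for EML6 (adjusted p = 0.0251), by 1.89 for SERP1 (adjusted p = 0.0332) and by 1.81 for CAPN2 (adjusted p = 0.0332). For DUSP5, a phosphatase of MAP kinases, the effect was 0.48 in the Qiagen and Dharmacon 1 pairs and -0.58 in Dharmacon 2, a difference of 1.06 (adjusted p = 0.049). EML6, of a microtubule-associated family, was read at 4.16 and 4.18 on the Qiagen and Dharmacon 1 mock arrays, at 6.17 and 6.16 on their siRNA arrays and at 5.58 (siRNA) and 5.66 (mock) in Dharmacon 2. For MDK, SERP1 and CAPN2 the Qiagen and Dharmacon 1 mock arrays likewise read low. On the siRNA arrays of those pairs these genes read close to both Dharmacon 2 arrays and to the untreated array. The Dharmacon 2 side rests on 1 array for each treatment. No group of the labels holds enough arrays for a test of single outlying arrays.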

How the results depend on the processing

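Against 305 genes higher and 309 lower, centring each array on its median gave 393 and 477, quantile normalization 383 and 448, single probe sets 203 and 254, the pair as a factor 56 and 100, and a further limit of 1.5-fold 85 and 167. Without dim genes the counts were 456 and 373. Dharmacon 1 alone, Qiagen alone, mock arrays alone and BRD1 siRNA arrays alone gave 0 and 0, with 1942, 2128, 3942 and 3044 genes at an unadjusted limma p under 0.05 and 1 residual degree of freedom. Leaving out each array in turn gave from 9 to 309 higher and from 37 to 688 lower. The 65 interaction genes became 281 (132 positive, 149 negative) after centring, 208 (184 and 24) without dim genes, 110 (92 and 18) with the brightest probe set and 125 (98 and 27) with a variance trend. Genes past 1.5-fold without overlap, 118 higher, became 220 with the brightest probe set and from 94 to 227 with an array left out. The causes of these shifts were not tested. The contrast of Qiagen with Dharmacon 1 called 0 genes in all 5 alternatives run, with 181 to 745 genes at an unadjusted limma p under 0.05.

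Of 113 genes reported, 98 were called, and none of these turned its sign in any alternative run. The 98 were chosen on these same arrays, so the kept signs largely follow from the choice. After centring 97 of them were past the threshold, after quantile normalization 95, with the brightest probe set 76 and with the pair as a factor 56; 28 were past it whichever array was left out. BBC3, not called, passed with an adjusted p of 0.0398 after centring (0.0384 to 0.262 over this and the other scaling, filter and probe set alternatives). BRD1 turned to -0.0623 with the brightest probe set. In the BRD1 siRNA arrays alone EML6 turned to 0.58, SERP1 to 0.0039 and CAPN2 to 0.11. With each array left out in turn these 3 ranged from -1.49 to 0.58, from -1.89 to 0.0039 and from -1.69 to 0.11, the positive values without the Dharmacon 2 mock array. H2AC14 turned to 0.80 in the mock arrays alone, and ranged from -3.53 to 0.80 with each array left out, the positive value without the Dharmacon 2 siRNA array. No paired analysis was possible because the replicate number itself separates the sides compared. Each pair of BRD1 siRNA and mock likewise lies wholly within a side, so it cannot serve as a block for this comparison. The main fit counts the arrays of a pair as independent, although the Dharmacon 2 side is a single pair. With the pair as a factor, the p-values rest on the spread within pairs, not between them.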

Other observations

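The called genes were counted by chromosome. Of 9172 genes with a mean level above the median of all values, 2.99% were called higher and 2.68% lower in the Qiagen and Dharmacon 1 arrays. On chromosome 3 the numbers were 29 of 529 higher (5.48%) and 5 lower (0.945%), and on chromosome 8, where MYC lies, 20 of 332 higher (6.02%) and 5 lower (1.51%). On chromosome 2 they were 15 and 28 of 613 (2.45% and 4.57%). The median difference was 0.06 on chromosome 3 and 0.04 on chromosome 8, beside 0.02 over these genes. These chromosomes were picked after the counts were seen, neighbouring genes are not independent, and the counts carry no test.

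The shares of promoter windows with other letters were also counted on both strands. TATAAA was found in 6.69% of 239 windows of genes called higher, 13.2% of 265 windows of genes called lower and 9.21% of measured genes. GGAATG, which TEAD factors bind, was found in 11.3%, 13.2% and 11.5%.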
